A study of Mus musculus with 10 samples.

Results

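Respiratory chain genes encode the complexes that oxidise NADH and succinate, pass the electrons to oxygen and use the resulting proton gradient to make ATP. Complex I, complex III and complex IV pump protons. Complex II feeds electrons from succinate without pumping, and complex V is the ATP synthase. Most subunits are encoded in the nucleus and imported, while the mitochondrial genome encodes a small core of complexes I, III, IV and V, so that each of these complexes needs transcripts from both genomes. Neurons draw most of their ATP from this pathway.

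Genes were taken by symbol, from the prefixes Ndufa, Ndufb, Ndufc, Ndufs, Ndufv, Sdha to Sdhd, Uqcr, Cox4 to Cox8, Atp5, mt-Nd, mt-Co, mt-Atp and mt-Cytb. Of 56691 genes in the deposited table, 124 carried such a symbol. Of these, 9 were left out because of -ps in their names, the highest of them Ndufb1-ps at 15.2 FPKM (fragments scaled by gene length and by library size). Another 5 had a mean below 1 FPKM: Ndufs6b at 0.946, Cox7b2 at 0.268, Ndufa11b at 0.063, and Cox8c and a second identifier of Atp5o, both listed at 0. The remaining 110 genes were described, among 14928 genes of the table with a mean of at least 1 FPKM. They comprised 97 nuclear and 13 mitochondrially encoded genes. The nuclear genes were 37 subunits of complex I, 4 of complex II, 8 of complex III, 19 of complex IV and 17 of complex V, with 12 assembly factors that share the prefixes (8 Ndufaf, 4 Sdhaf). Ndufa4 and its relative Ndufa4l2 were counted with complex IV, where the Ndufa4 protein is found.

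RNA-seq was done on the medial habenula, a small nucleus of the epithalamus rich in cholinergic neurons and nicotinic receptors, from 10 wild-type mice with 1 library each. Nicotine ditartrate (4 mg/kg, into the peritoneum) was given to the 6 withdrawal mice 2 times a day over 14 days and was replaced by saline on day 15. Controls (4 mice) had saline injections only, for 17 days, and all mice were sampled on day 17. Age and sex are not given in the labels, and the material is called sorted cholinergic neurons in one label and brain tissue in another.

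Total counts per library lay between 15023448 and 22026333, and the 110 genes took 4.94% to 6.21% of them. The summed level of 11 medial habenula markers was 35.6 CPM (counts scaled to a common library size) in control 2 and 32.6 CPM in withdrawal 2, whereas the other 8 libraries had 1303 to 1975 CPM. The defining transcripts of the labelled nucleus were thus near-absent from these libraries, and results are given with and without them. Control 2 was instead the highest library in 7 markers of hippocampal and cortical excitatory neurons, at 9842 CPM against 529 to 3043 CPM elsewhere. Withdrawal 2 was the highest in 6 summed markers of GABAergic neurons, at 1120 CPM. Control 2 had 865 CPM of these, and the other libraries had 94.2 to 372 CPM. Oligodendrocyte markers summed to between 5863 and 14569 CPM and astrocyte markers to between 1400 and 2150 CPM, so RNA of glia was present in all 10 libraries. Both sums were highest in withdrawal 2. In such bulk samples, fewer cells of a type and less RNA per cell cannot be told apart.

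Transcript levels of the respiratory chain differed between genes by far more than between mice. Compared per length, the nuclear complex V genes Atp5a1 (252 FPKM, averaged over the 10 libraries) and Atp5b (220.1 FPKM), the alpha and beta subunits that form the catalytic head of ATP synthase, stood highest of the nuclear set. Cox8a followed at 212 FPKM, Cox4i1 at 174 FPKM, Cox6a1 at 149.7 FPKM and Cox6b1 at 125 FPKM, all of complex IV. Sdha, the flavin-carrying subunit of complex II that oxidises succinate, had 109 FPKM, above Uqcrh, the hinge protein of complex III (83.1 FPKM). The median nuclear gene had 27.8 FPKM in complex I with its assembly factors, 20.6 FPKM in complex II with its own, 56.9 FPKM in complex III, 49.9 FPKM in complex IV and 33.3 FPKM in complex V. The lengths behind the FPKM values equalled the merged exons of all annotated transcripts to within 5% for 110 of 110 genes. They exceeded the longest single transcript by more than 1.5 times for 30 genes, so the FPKM of those genes are lower than a single transcript's length would give. Atp5b (4237 bases, longest transcript 1916) and Cox4i1 (1550 bases, longest transcript 765) are among them. For Atp5a1 (3135 and 2674) and Cox8a (619 and 550) the lengths were closer. The order of these top genes therefore depends on the length used.

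Nuclear respiratory genes are known targets of the factors NRF1, GABP (an ETS family factor), YY1 and ERR alpha. Promoter windows of 300 bases, from 250 bases before to 50 after the start, were found in RefSeq (GRCm38.p6) for 77 of the 97 nuclear genes, giving 82 windows. The NRF1 core CGCATGCG was in 13.4% of them, against 1.87% of all 32851 windows and 3.56% of the 13547 windows of genes with a mean of at least 1 FPKM. For the ETS letters CCGGAAG these shares were 25.6%, 8.86% and 16.0%, and for the YY1 letters AAGATGGCG they were 9.76%, 1.40% and 2.79%. The ERR letters TCAAGGTCA were in 2 member windows (2.44%, against 0.42% and 0.29%). The TATA letters TATAAA were in 9.76% of member windows, 13.6% of all and 7.15% of those of expressed genes. Both strands were searched, and the ETS and YY1 letters can overlap by AAG. These are matches of letters, not binding sites.

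Windows of a pair of complex IV subunits are shown first. Cox8a is the widely expressed form of subunit VIII and Cox8b the form of heart, skeletal muscle and brown fat, and their levels here were 212 and 4.09 FPKM. Cox6a1, the widely expressed form of subunit VIa, is shown because its window holds both the NRF1 and the ETS letters. Ndufv3, an accessory subunit of the NADH-oxidising arm of complex I, is shown because it had the smallest adjusted p of the 110 genes. Each window is written 5′ to 3′ on the strand of the gene, and capitals mark the motif letters.
Cox8a, chr19:7217567-7217866, minus strand: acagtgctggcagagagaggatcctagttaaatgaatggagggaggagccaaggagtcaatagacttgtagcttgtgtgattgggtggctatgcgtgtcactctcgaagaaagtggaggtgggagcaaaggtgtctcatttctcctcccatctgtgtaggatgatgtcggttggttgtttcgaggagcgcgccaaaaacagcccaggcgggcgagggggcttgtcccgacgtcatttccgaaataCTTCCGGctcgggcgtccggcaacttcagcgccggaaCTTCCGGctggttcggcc
Cox8b, chr7:140900397-140900696, minus strand: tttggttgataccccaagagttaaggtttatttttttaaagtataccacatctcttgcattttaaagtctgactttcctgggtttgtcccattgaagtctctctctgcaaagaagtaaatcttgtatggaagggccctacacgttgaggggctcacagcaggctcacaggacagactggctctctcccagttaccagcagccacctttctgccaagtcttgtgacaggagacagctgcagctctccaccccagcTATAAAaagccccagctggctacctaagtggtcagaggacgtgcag
Cox6a1, chr5:115348909-115349208, minus strand: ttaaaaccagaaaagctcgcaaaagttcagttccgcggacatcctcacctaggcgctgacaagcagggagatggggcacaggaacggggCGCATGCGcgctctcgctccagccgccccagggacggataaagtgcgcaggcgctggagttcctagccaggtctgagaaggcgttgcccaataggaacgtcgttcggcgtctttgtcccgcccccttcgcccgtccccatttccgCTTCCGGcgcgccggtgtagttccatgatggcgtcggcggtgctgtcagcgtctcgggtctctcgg
Ndufv3, chr17:31519865-31520164, plus strand: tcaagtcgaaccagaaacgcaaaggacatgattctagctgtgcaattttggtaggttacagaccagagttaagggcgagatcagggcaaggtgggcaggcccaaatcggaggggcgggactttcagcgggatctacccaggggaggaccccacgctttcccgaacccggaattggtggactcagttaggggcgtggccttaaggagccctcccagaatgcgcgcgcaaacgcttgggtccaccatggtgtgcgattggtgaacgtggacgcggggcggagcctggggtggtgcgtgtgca
The Cox8a window held 19 CpG dinucleotides and the ETS letters at bases 246 and 283, counted from 1 at the window's 5′ end. The Cox8b window held 2 CpG dinucleotides and the TATA letters at base 255. The first 250 bases of a window lie before the annotated start. The TATA letters of Cox8b and the Cox8a match at base 283 thus lie after it. In the Cox6a1 window, with 32 CpG dinucleotides, the NRF1 core began at base 90 and the ETS letters at base 235. The Ndufv3 window held 20 CpG dinucleotides and none of the 5 motifs.

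The comparison of withdrawal with control asks whether transcripts of the chain differ in the medial habenula after nicotine is stopped. No respiratory chain gene passed the test. In edgeR's quasi-likelihood test with Benjamini-Hochberg adjustment over all 14928 genes, 0 of 110 members were called at 0.05, where 31 genes in all (0.208%) were called. The smallest adjusted p among members was 0.261, for Ndufv3. At an unadjusted p under 0.05 there were 2 members with higher values in withdrawal (Ndufv3, Atp5s) and 1 with lower values (mt-Nd4l). That is 3 of 110, against 15.4% of all genes tested. With DESeq2 the count of called members was also 0, where 380 of all 14928 genes were called.

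The 110 log2 differences (withdrawal minus control) ranged from -0.45 (mt-Nd4l) to 1.42 (Cox6a2). Of these, 71 were above 0 and 39 below, with a median of 0.04, against a median of 0.00 over all genes, where 7558 were above 0 and 7370 below. Under scaling to library totals without TMM factors, the median was 0.12 for members and 0.08 for all genes, and 93 members lay above 0. The 95% interval of the difference lay within 0.5 on the log2 scale, a 1.41-fold change, for 94 of 110 members (85.5%), against 47.6% of all genes. The median standard error (SE) was 0.0872 for members and 0.152 for all genes. Members and all genes were not matched for level in these comparisons. For those 94 genes a change beyond 1.41-fold in either direction lay outside the interval, and for the other 16 it did not.

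**Figure D1:**
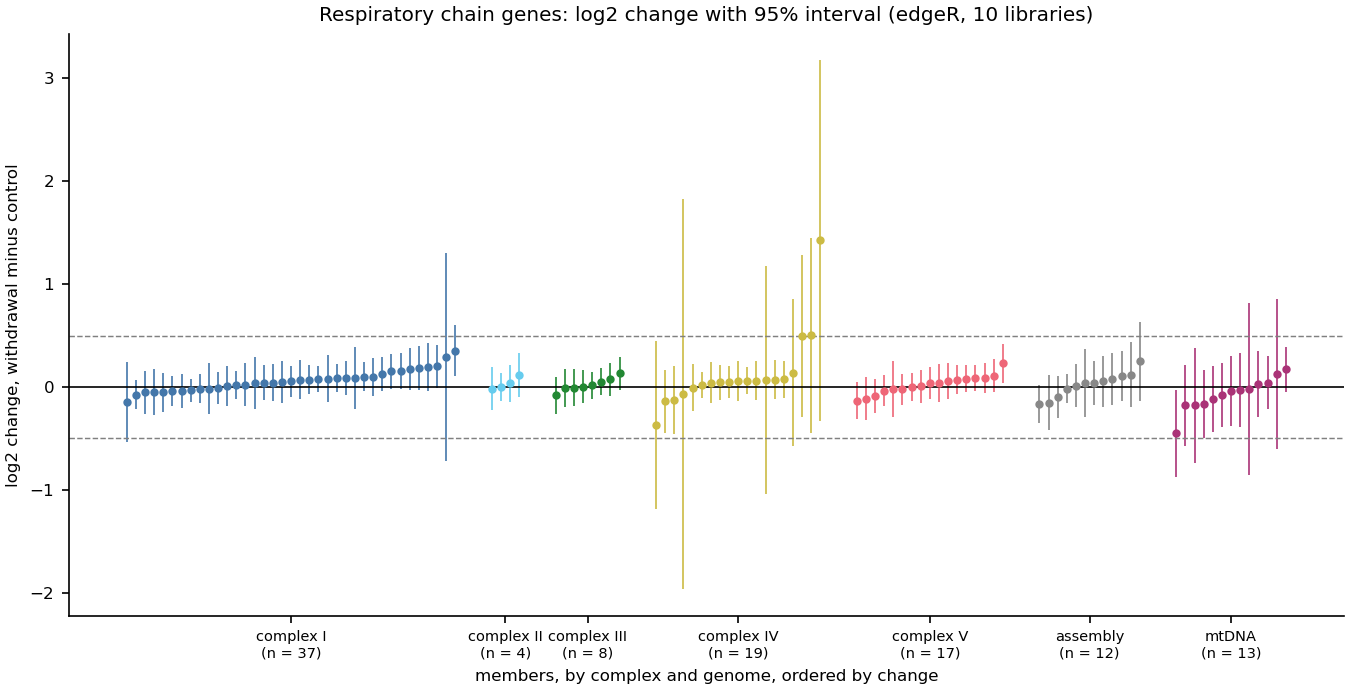
Log2 difference (withdrawal minus control) of each of the 110 genes with its 95% interval from edgeR over 10 libraries, grouped by complex and genome and ordered by value within a group. Dashed lines mark 0.5 on either side of 0; 94 intervals lie between them, and the widest belong to the low genes Cox8b and Cox6a2 of complex IV.

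Complex I takes electrons from NADH. Of its 37 nuclear subunits, 26 had a difference above 0 and 11 below, with a median log2 difference of 0.05 and a range from -0.14 to 0.35. Ndufv3 had 51.3, 34.7, 41.0 and 51.3 CPM in controls 1 to 4, and 51.9, 57.6 and 59.3 CPM as the lowest, median and highest of the 6 withdrawal libraries. All 6 withdrawal values were above all 4 controls, by a narrow margin over controls 1 and 4, also with library totals. The log2 difference was 0.35 (SE 0.111, edgeR adjusted p = 0.261). Such a full separation upward was found for 2 of 110 members and for 242 of all 14928 genes (1.62%). Downward, 0 members and 252 of all genes were separated.

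Ndufs1, the iron-sulphur subunit that carries electrons through the peripheral arm, was chosen after its values were seen as the steadiest member. It ranged from 164 to 172 CPM in controls and from 157 to 169 CPM in withdrawal, and its SD of log2 CPM over the 10 libraries was 0.0412. Ndufa5, an accessory subunit of the same arm, was also chosen after the fact, because 1 library stood out. Control 2 had 46.1 CPM, and the other 9 libraries lay between 25.1 and 33.1 CPM. In the FPKM columns, which use library totals, the gap was smaller (36.9 FPKM, against 23.9 to 32.3 FPKM).

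Ndufb4, an accessory subunit of the membrane arm, had a log2 difference of 0.20 (SE 0.104), and its gene copy Ndufb4c 0.29. Every 50-base stretch of the Ndufb4c transcript also occurs in another gene, Ndufb4 above all, so reads of these genes cannot be told apart with certainty. Of the 97 nuclear genes, 40 share no 50-base stretch with another gene, and 4 share more than 50% of theirs: Ndufb4c, Sdhaf1, Ndufaf2 (64.1%, with 65 genes) and Cox6c2 (52.7%, with Cox6c). The 12 assembly factors, proteins that help to build complexes I and II without staying in them, had 8 differences above 0 and 4 below, with a median of 0.04. Their extremes were Ndufaf4 at -0.17 (SE 0.0829) and Ndufaf8 at 0.25 (SE 0.173), and neither passed the test.

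Complex II, the succinate dehydrogenase shared with the citric acid cycle, has no mitochondrially encoded subunit. Sdha had 447, 386, 423 and 465 CPM in the controls and 378, 473 and 525 CPM as lowest, median and highest in withdrawal. Control 2 and withdrawal 2 had the lowest value of their groups, and the groups overlapped. The log2 difference was 0.12 (SE 0.0972, edgeR adjusted p = 0.567). Sdhb, the iron-sulphur subunit, had a difference of 0.04, and the membrane anchors Sdhc and Sdhd had -0.02 and 0.00. Sdhaf1, an assembly factor for the iron-sulphur subunit, had the smallest unadjusted p of the complex II group. Its values were 5.51, 6.16, 5.74 and 4.85 CPM in the controls and 4.45 to 5.54 CPM in withdrawal, with overlap and a difference of -0.15 (SE 0.120). The Sdhaf1 transcript shares 69.0% of its 50-base stretches with the gene model E130208F15Rik, so its level is uncertain.

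Complex III passes electrons from ubiquinol to cytochrome c. Its 8 nuclear genes had differences between -0.08 and 0.13, with 5 above 0. Uqcrh had 97.3, 94.3, 91.7 and 107 CPM in the controls, and 95.4, 108 and 117 CPM as lowest, median and highest in withdrawal. Of the 6 withdrawal libraries, 4 lay above the highest control, and the log2 difference was 0.13 (SE 0.071, edgeR adjusted p = 0.376). The core protein Uqcrc2 and the Rieske iron-sulphur protein Uqcrfs1 had differences of 0.01 and 0.05.

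Complex V had 17 nuclear genes, 11 with a difference above 0 and 6 below, and all 17 intervals lay within 0.5 on the log2 scale. Atp5s, coupling factor B, an accessory protein of the ATP synthase, had 17.9, 14.8, 17.7 and 17.7 CPM in the controls and 17.9, 20.2 and 21.3 CPM as lowest, median and highest in withdrawal. All withdrawal values were above all controls, although control 1 and withdrawal 2 were equal to 3 digits, and with library totals the groups overlapped. The log2 difference was 0.23 (SE 0.0846, edgeR adjusted p = 0.272). Atp5a1 had 782, 785, 754 and 807 CPM in the controls and between 724 and 834 CPM in withdrawal, with withdrawal 2 the lowest of all 10 (with library totals, control 2). Its difference was 0.04 (SE 0.0692, edgeR adjusted p = 0.813), and that of Atp5b was -0.02 (SE 0.0678). Atp5e, the epsilon subunit of the central stalk, and Atp5g1, one of 3 genes for the rotating c subunit, had -0.13 and -0.11, while the other c-subunit genes Atp5g2 and Atp5g3 had 0.04 and 0.07.

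Complex IV, cytochrome c oxidase, held the 3 most variable members, Cox8b, Cox6a2 and Cox6b2. Cox8a had 128, 183, 119 and 133 CPM in the controls, and 106, 127 and 149.8 CPM as lowest, median and highest in withdrawal. The highest value in each group came from control 2 and withdrawal 2. The log2 difference was -0.14 (SE 0.138, edgeR adjusted p = 0.632) with all libraries and 0.01 without control 2. Cox6a1, named after its values were seen, also had its highest value in control 2 (154 CPM), with 90.0 to 118 CPM elsewhere. In the FPKM columns the gap was smaller (181 FPKM, against 130 to 170 FPKM). Cox4i1, the regulatory subunit that binds ATP, had between 253 and 278 CPM in controls and between 261 and 293 CPM in withdrawal (difference 0.06, SE 0.0596).

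The forms of complex IV subunits known from few tissues were low and variable. Cox6a2, the heart and muscle form of subunit VIa, had 3.08, 0.550, 0.733 and 2.28 CPM in controls 1 to 4. In withdrawal 1 to 6 it had 7.87, 0.301, 3.64, 3.79, 8.91 and 2.31 CPM. It was low in control 2, withdrawal 2 and control 3, the groups overlapped, and its difference of 1.42 was the largest of the 110 in size (SE 0.787, interval -0.33 to 3.18, edgeR adjusted p = 0.391). Medial habenula markers were also near-absent in control 2 and withdrawal 2 but not in control 3, where they summed to 1536 CPM. Hippocampal and cortical markers were highest in control 2, control 3 and withdrawal 2 (9842, 3043 and 2809 CPM, against 529 to 1485 CPM elsewhere). GABAergic neuron markers were highest in the same libraries (865, 372 and 1120 CPM, against 94.2 to 259 CPM elsewhere). The part of these markers in the Cox6a2 values was not tested.

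Cox8b had 2.30, 0.110, 1.47 and 2.14 CPM in the controls and 0.775, 3.31, 0.0506, 0.758, 0.837 and 2.84 CPM in withdrawal 1 to 6. Control 2 and withdrawal 3 were the lowest libraries, and withdrawal 2 was the highest. Those were also the lowest and highest libraries in 8 markers of choroid plexus and ependyma, the epithelium and lining of the nearby ventricle. These markers summed to 8314, 88.4, 7423 and 10349 CPM in the controls, and to 2989, 13309, 238, 4658, 2302 and 9855 CPM in withdrawal 1 to 6. All 8 of these markers had counts in every library, and their part in the Cox8b values was not tested. The Cox8b difference was -0.07 (SE 0.852, interval -1.97 to 1.83).

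Cox6b2, a form of subunit VIb best known from testis, had 7.55, 0.824, 6.05 and 7.64 CPM in the controls. Its values in withdrawal 1 to 6 were 4.65, 7.01, 3.90, 6.70, 3.79 and 8.64 CPM. Control 2 stood alone at the bottom, and the other 9 libraries overlapped between groups (difference 0.07, SE 0.496). Withdrawal 6, the highest library for Cox6b2, was among the 4 highest in the choroid plexus markers, and control 2 the lowest in both; this relation was not tested either. Cox7a1, the heart and muscle form of subunit VIIa, had 1.05, 0.550, 1.04 and 1.07 CPM in the controls and 0.788 to 2.35 CPM in withdrawal, lowest in control 2 and highest in withdrawal 2 (difference 0.50, SE 0.352). Cox4i2, a form of subunit IV linked to low oxygen, lay between 0.733 and 1.38 CPM in controls and 0.405 and 1.43 CPM in withdrawal (difference -0.37, SE 0.367). Ndufa4l2, another gene induced by low oxygen, lay between 1.04 and 1.59 CPM and 0.715 and 2.04 CPM (difference 0.14, SE 0.320). Mural cells, in which Cox4i2 and Ndufa4l2 are known markers, had summed marker levels of 224 to 274 CPM in controls and 167 to 247 CPM in withdrawal.

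**Figure D2:**
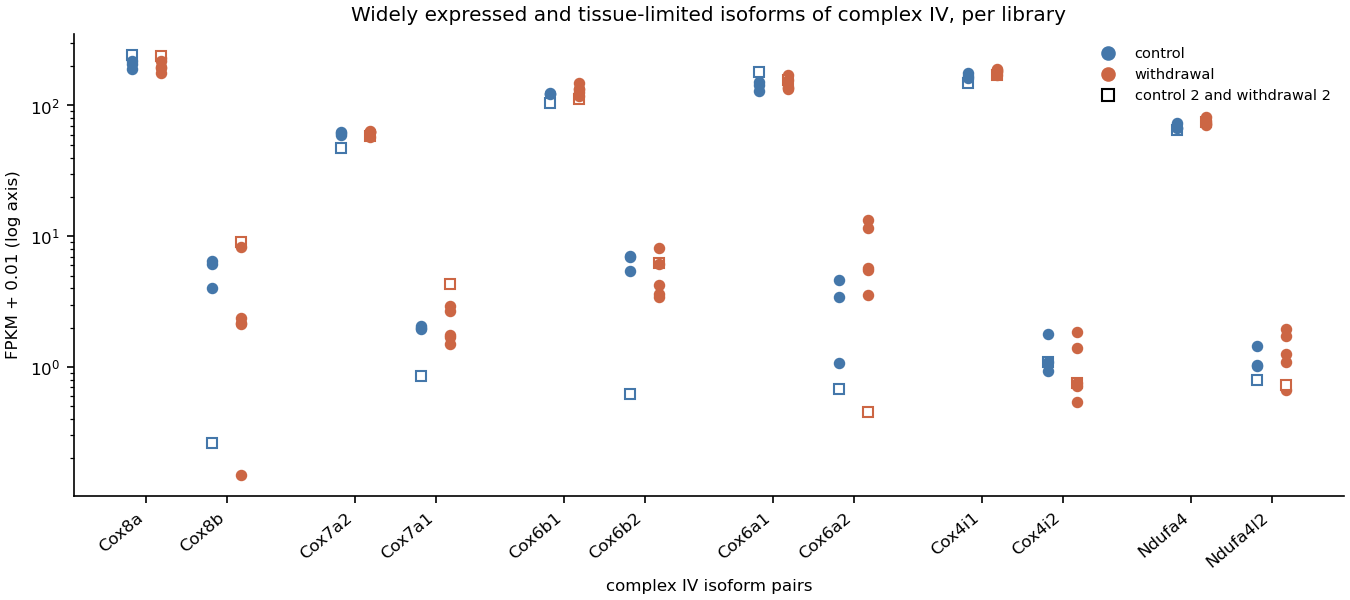
FPKM (log axis, with 0.01 added) of widely expressed complex IV subunits and their tissue-limited relatives in each library, controls in blue and withdrawal in orange, with open squares for control 2 and withdrawal 2. The widely expressed forms lie within narrow bands, as Cox8a from 176 to 244 FPKM, while Cox8b spans 0.140 to 9.04 FPKM and Cox6b2 0.610 to 8.09 FPKM.

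The mitochondrial genome is transcribed as long precursors from both strands that are cut into single RNAs, so its genes share their transcription. In these libraries 7 of the 13 genes had between 1755 and 11578 FPKM. The highest was mt-Co1, the catalytic core of complex IV, at 11578 FPKM, followed by mt-Cytb of complex III at 6841, mt-Nd1 at 5775, mt-Nd2 at 4193, mt-Nd4 at 2993, mt-Nd5 at 2846 and mt-Nd6 at 1755 FPKM. The last of these genes is the only one of the set on the light strand. The other 6 genes had less than 100 FPKM: mt-Co2 89.2, mt-Co3 31.4, mt-Atp6 29.2, mt-Nd3 5.74, mt-Nd4l 3.69 and mt-Atp8 2.60 FPKM.

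Nuclear copies of mitochondrial DNA share sequence with these genes. Of the 50-base stretches of mt-Co2, 100% also occur in a nuclear transcript of GENCODE M21, and the shares were 99.9% for mt-Co3, 99.5% for mt-Atp6, 98.8% for mt-Nd4l and 98.0% for mt-Nd3. These 5 genes had 3.69 to 89.2 FPKM. The 7 high genes had shares from 0% to 62.2%, with 62.2% for mt-Nd4 and 51.1% for mt-Co1. The copies carried counts of their own: Gm10925 had 5210 counts over the 10 libraries against 3698 for mt-Atp6, and Gm28661 had 7367 against 11529 for mt-Co2. Gm28437 had 2541 counts against 4551 for mt-Co3, whereas Gm29216 had 1897 against 3324627 for mt-Co1. How the counting treated reads that fit several places is not given in the sources used here, so the levels of mt-Co2, mt-Co3, mt-Atp6, mt-Nd3 and mt-Nd4l are uncertain. For mt-Atp8 the share was 0%. This gene overlaps mt-Atp6 on one RNA, as mt-Nd4l overlaps mt-Nd4, and reads on an overlap belong to both genes; the part of either in the low values was not tested.

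**Figure D3:**
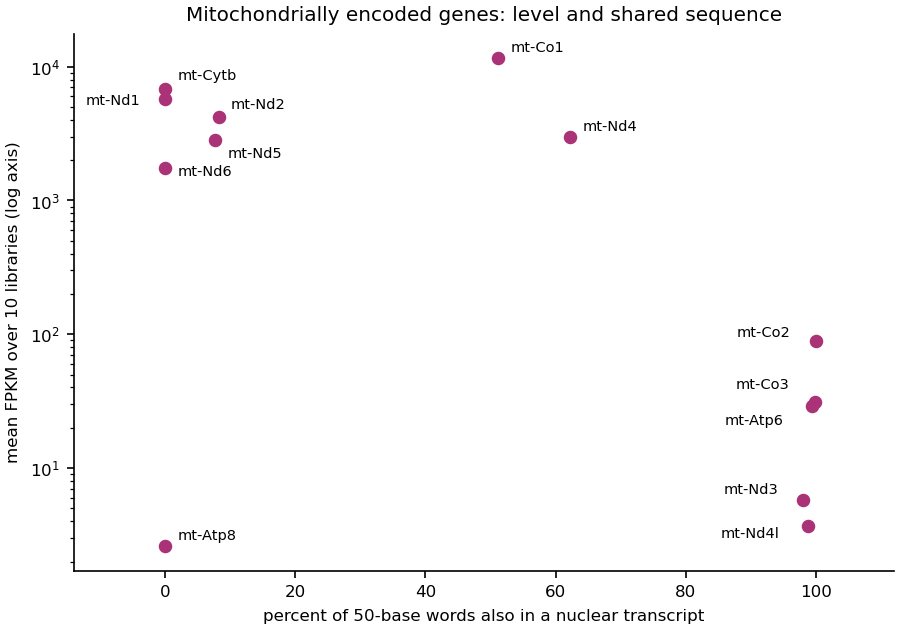
Mean FPKM over the 10 libraries (log axis) of the 13 mitochondrially encoded genes against the percentage of their 50-base stretches that also occur in a nuclear transcript. The 5 genes at 98.0% or more lie between 3.69 and 89.2 FPKM, and the 7 genes at 1755 FPKM or more lie at or below 62.2%.

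Among the 13 genes, 4 differences were above 0 and 9 below, with a median of -0.04, and none passed the test. Without control 2 and withdrawal 2, 9 were above 0 and the median was 0.05. The sign of the median therefore turned with these libraries, and in both sets it was smaller in size than the median SE of the 13 genes (0.154 and 0.108). mt-Co1 had 17294, 23110.0, 16241 and 16665 CPM in the controls, and 15333, 17969 and 21009 CPM as lowest, median and highest in withdrawal. Control 2 was the highest of all 10 libraries and withdrawal 1 the second, and the difference was -0.03 (SE 0.162, edgeR adjusted p = 0.943). The same order held for mt-Cytb, a catalytic subunit of complex III, which had 7706, 10133, 7342 and 7508 CPM in controls 1 to 4 and 6888 to 8972 CPM in withdrawal (difference -0.07, SE 0.140).

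With library totals, as in the FPKM columns, withdrawal 1 and not control 2 was the highest library in mt-Co1 (13691 against 12356 FPKM) and mt-Cytb, and likewise in mt-Nd1 and mt-Nd4.

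The complex I genes of the mitochondrial genome encode its proton-pumping membrane part. With TMM factors control 2 was the highest library in mt-Nd1 (7409.5 CPM, with the other 9 at 4731 to 6672 CPM), mt-Nd2 (6140.3 CPM, against 3634 to 4860.3 CPM) and mt-Nd4 (5697 CPM, against 3556 to 4691 CPM). The differences were -0.04 (SE 0.154), -0.16 (SE 0.149) and -0.12 (SE 0.144). mt-Nd5 lay between 4623 and 5649 CPM in controls and 4786 and 5972 CPM in withdrawal, with a difference of 0.04 (SE 0.116). mt-Nd6, from the light strand, lay between 754 and 917 CPM in controls and 862 and 1113 CPM in withdrawal, and had the highest difference of the 13, at 0.17 (SE 0.0982, edgeR adjusted p = 0.408).

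Among the low genes, mt-Nd4l had 1.31, 1.43, 1.41 and 1.17 CPM in the controls and 0.641, 0.983 and 1.25 CPM as lowest, median and highest in withdrawal. Only withdrawal 2 reached into the range of the controls, and the difference was -0.45 (SE 0.190, edgeR adjusted p = 0.304); this gene had 204 counts over all 10 libraries and a nuclear copy with 163. mt-Co2 stood at 88.8 CPM in control 2 and at 129 CPM in withdrawal 2, while the other 8 libraries spanned 45.1 to 58.0 CPM. Its difference was 0.13 (SE 0.327) with all libraries and -0.20 without withdrawal 2. The remaining mt-Co3 (-0.18, SE 0.175), mt-Nd3 (-0.18, SE 0.251), mt-Atp6 (0.03, SE 0.144) and mt-Atp8 (-0.02, SE 0.374) overlapped between groups.

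Summed over genes, the nuclear members had 7893 ± 206 CPM in controls (SD, n = 4) and 8052 ± 291 CPM in withdrawal (SD, n = 6). The log2 ratio of the means was 0.03. The mitochondrial genes summed to 47415 ± 7948 CPM in controls and 45899 ± 4606 CPM in withdrawal, with a log2 ratio of -0.05. Both differences were smaller than the SD of either group. With library totals the log2 ratio of the mitochondrial sums was 0.04, so its sign depended on the scaling. The mitochondrial sum divided by the nuclear sum, which does not depend on how libraries are scaled, was 5.99 ± 0.868 in controls and 5.70 ± 0.559 in withdrawal. It was 7.28 in control 2 and lay between 5.03 and 6.36 in the other 9 libraries. Without control 2 and withdrawal 2 it was 5.57 ± 0.182 in controls (n = 3) and 5.57 ± 0.510 in withdrawal (n = 5). Control 2 had the highest mitochondrial sum with TMM factors (59205 CPM), but with library totals alone withdrawal 1 was highest (54142 CPM, against 49230.0 CPM in control 2).

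By complex, the nuclear sums in controls and withdrawal were 2108 ± 66.5 and 2175 ± 106 CPM for complex I, and 654 ± 42.0 and 690.2 ± 48.2 CPM for complex II. They were 667 ± 19.6 and 682 ± 26.7 CPM for complex III, 1235 ± 106 and 1251 ± 71.7 CPM for complex IV, and 3003 ± 48.5 and 3032 ± 96.3 CPM for complex V. All 5 sums were higher in withdrawal by less than the larger of the group SDs. With TMM factors withdrawal 2 had the lowest sum of the 10 libraries in complexes I, II, III and V, and with library totals control 2 had the lowest in all 5 complexes. Without these libraries, the nuclear sum was 7812 ± 156 CPM in controls (SD, n = 3) and 8152 ± 174 CPM in withdrawal (SD, n = 5). These CPM keep the TMM factors of all 10 libraries. The 3 controls had 7775, 7678 and 7983 CPM, and withdrawal lay between 7985 and 8397.5 CPM, so the lowest withdrawal library was just above the highest control, also with library totals (8236 against 8225 CPM). The log2 ratio was 0.06, and 0.05 with TMM factors fitted without control 2 and withdrawal 2. With the factors of all 10 libraries this difference exceeded the SD of either group. It was described without a test. In the same 8 libraries the summed markers of 4 of 9 cell type lists were lower in every withdrawal library than in every control. Oligodendrocyte markers summed to 11071 to 12292 CPM in controls and to 5863 to 10008 CPM in withdrawal. Astrocyte markers summed to 1772 to 1818 CPM and 1400.0 to 1624 CPM, markers of hippocampal and cortical excitatory neurons to 1425 to 3043 CPM and 529 to 759 CPM, and mural cell markers to 226 to 274 CPM and 167 to 221 CPM. With library totals the mural cell ranges overlapped and the other 3 lists stayed apart. The sums of the other 5 lists, medial habenula among them (1415 to 1912 CPM and 1303 to 1975 CPM), overlapped between groups. The part of these markers in the nuclear sum was not tested.

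**Figure D4:**
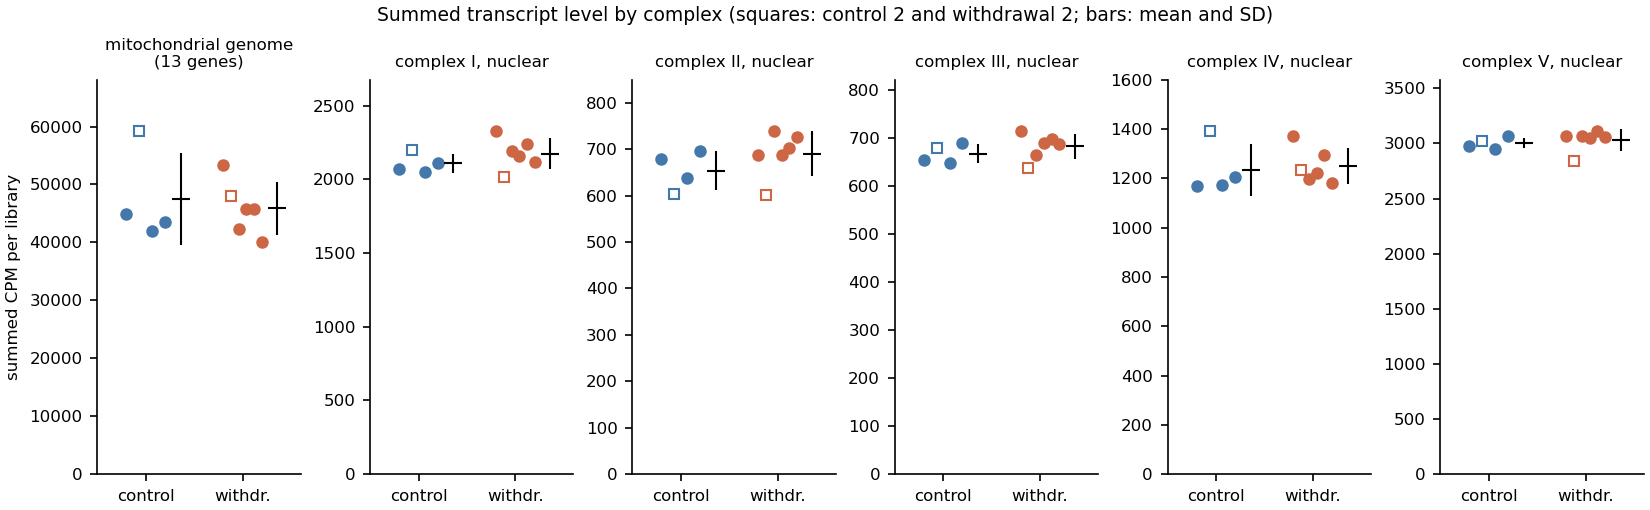
Summed CPM per library of the 13 mitochondrially encoded genes and of the nuclear subunits of each complex, by group, with the mean and SD beside the points and open squares for control 2 and withdrawal 2. Each panel has its own axis from 0. The groups overlap in all panels. With these TMM-scaled values, though not with library totals, control 2 stands above the other libraries in the mitochondrial genome. In complex IV it is the highest by a narrow margin (1392 CPM, against 1373 CPM in withdrawal 1).

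Leaving out control 2 and withdrawal 2 left 3 controls and 5 withdrawal mice. In all, 2088 of 14928 genes (14.0%) then passed edgeR's test at an adjusted p of 0.05, but 0 of the 110 respiratory chain genes did. At an unadjusted p under 0.05, 10 members were higher and 2 lower, against 30.9% of all genes. The median log2 difference was 0.06 for members and 0.01 for all genes, with 79 members above 0. For 98 of 110 members (89.1%) the 95% interval lay within 0.5 on the log2 scale, against 60.1% of all genes, again not matched for level.

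The members nearest to the threshold in the 8 libraries, named after their values were seen, were Ndufv2 and Cox7a2l. Ndufv2, an iron-sulphur subunit of the NADH-oxidising arm, had a log2 difference of 0.15 (SE 0.0437, edgeR adjusted p = 0.0552). Its 3 controls lay at 93.0 to 97.3 CPM and its 5 withdrawal libraries at 103 to 108 CPM, without overlap, whereas withdrawal 2, which was left out, had 90.2 CPM. Cox7a2l, a protein that joins complexes III and IV into supercomplexes, had a difference of 0.17 (SE 0.0533, edgeR adjusted p = 0.0619). Ndufv3 and Atp5s, separated in all libraries, had 0.23 (adjusted p = 0.0934) and 0.19 (adjusted p = 0.0886) in edgeR. Of the 2 lower members, Atp5e had -0.21 (adjusted p = 0.0701) and Atp5g1 -0.21 (adjusted p = 0.109). Cox6a2 had 1.37 (SE 0.533, adjusted p = 0.114). Cox8b moved from -0.07 to -0.91 (SE 0.665) and Cox6b2 from 0.07 to -0.36 (SE 0.275), neither of them called.

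**Figure D5:**
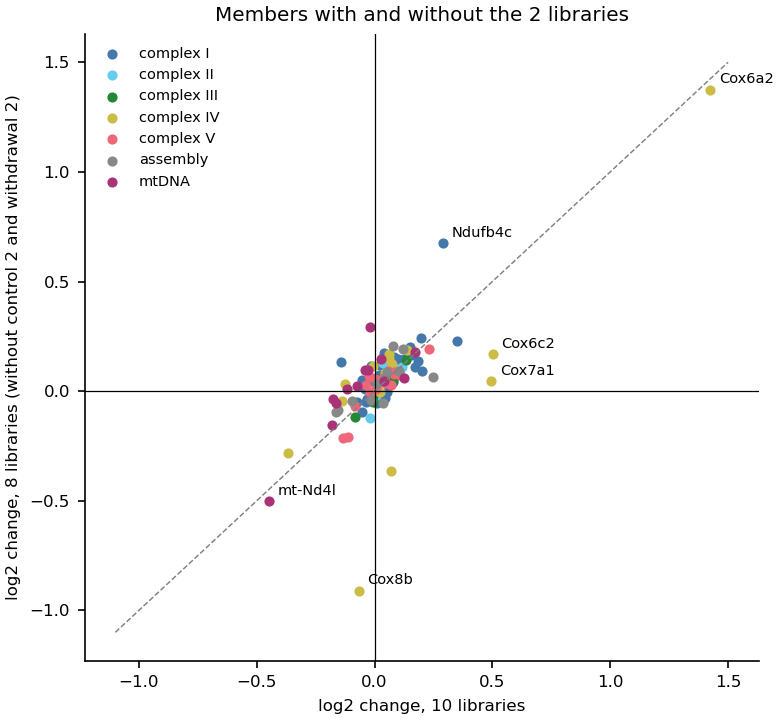
Log2 difference (withdrawal minus control) of each of the 110 genes with all 10 libraries (horizontal) and with the 8 libraries without control 2 and withdrawal 2 (vertical); the dashed line marks equal values. Most points lie near the origin, Cox6a2 is high in both (1.42 and 1.37), and Cox8b lies far below the line (-0.07 and -0.91).

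Control 2 lay above all 8 habenula-positive libraries in 35 of the 110 genes and below them in 25, against 34.3% and 32.7% of all genes tested. With library totals these counts became 7 and 72, against 17.9% and 53.8% of all genes, so the direction depended on the scaling. The TMM factor of control 2 was 0.832, and those of the other libraries lay between 0.994 and 1.05. For withdrawal 2 the counts were 16 above and 28 below, against 23.2% and 24.3% of all genes, and with library totals 10 and 32, against 19.3% and 28.0%. The spread of log2 CPM over all 10 libraries had a median SD of 0.127 for members and 0.252 for all genes, which were not matched for level. Among the member groups it was at its lowest, 0.0935, in the nuclear genes of complex V.

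Genes around the chain that the symbols leave out were listed as 6 groups. With all 10 libraries, edgeR called 0 of 34 further assembly factors, 0 of 22 genes of the citric acid cycle and pyruvate entry, 0 of 13 electron and nucleotide carriers, 0 of 17 genes for copying and transcribing mitochondrial DNA, 0 of 13 regulators of mitochondrial biogenesis and 0 of 10 genes of uncoupling and oxidant defence. At an unadjusted p under 0.05, 3 of these 109 genes were higher and 5 lower, against 15.4% of all genes. DESeq2 called 1 of them, Surf1, where it called 380 of all 14928 genes. With limma on log2(FPKM + 1) and log2(FPKM + 0.1), 0 of them were called, against 12 and 10 of all genes. The median log2 differences of the groups lay between -0.04 and 0.01. In the 8 habenula-positive libraries, 2 of these genes were called higher and 4 lower, where 14.0% of all genes were called. These are the libraries in which the summed markers of oligodendrocytes, astrocytes, hippocampal and cortical neurons and, with TMM factors, mural cells were lower in all withdrawal mice. The part of those markers in the 6 calls was not tested.

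The assembly factor Surf1, needed to build complex IV, rose in the 8 libraries, with a log2 difference of 0.26 (SE 0.0558, edgeR adjusted p = 0.0171). With all 10 libraries it ranged from 33.9 to 37.4 CPM in controls and from 38.4 to 42.9 CPM in withdrawal, without overlap (0.22, adjusted p = 0.239 in edgeR). Vdac2, a channel of the outer membrane, rose by 0.20 (adjusted p = 0.0452 in edgeR). Gpd2, which passes electrons from glycerol phosphate to ubiquinone, fell by 0.35 (adjusted p = 0.0156 in edgeR), and it ranged from 115 to 260.1 CPM in controls and from 92.5 to 121 CPM in withdrawal over 10 libraries.

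Polg, the polymerase of mitochondrial DNA, fell by 0.31 (edgeR adjusted p = 0.0310) in the 8 libraries. Gabpa, the DNA-binding subunit of GABP, fell by 0.26 (edgeR adjusted p = 0.0181). Pdk4, a kinase that shuts off pyruvate dehydrogenase, fell by 1.04 (edgeR adjusted p = 0.0154); over 10 libraries it ranged from 10.1 to 27.6 CPM in controls and 8.25 to 22.5 CPM in withdrawal. Named by the smallest unadjusted p but not called in either set were Cox15 (-0.13 over 10 libraries), Dlat (-0.25), Ssbp1 (0.19), Yy1 (-0.19), Slc25a27 (0.19) and Gpx4 (0.15, and -0.01 in the 8 libraries).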

How the data were processed

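RNA-seq of 10 mouse medial habenula libraries (4 control, 6 withdrawal) was used. For each library the deposited table holds a column of raw counts, whole numbers of reads assigned to each gene, per the file headers. A second column holds FPKM as deposited, which divide the counts by gene length and library size. The submitters' processing notes name HTSeq 0.6.1, HISAT2 2.2.1, cutadapt 1.9.1 and the build mm39. The annotation release and strand setting are not given in the sources used here, so antisense and overlapping genes cannot be told apart. Symbols came from GENCODE M21 (52073 of 56691 identifiers). No protein or mm39 sequence was used here.

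Genes with a mean of at least 1 FPKM (14928) were tested with edgeR 4.0.16 in R 4.3.3 (quasi-likelihood test, TMM factors, 2-sided, Benjamini-Hochberg adjustment over all genes, threshold 0.05). Adjusted p-values in the text come from edgeR unless another tool is named. CPM use TMM factors; 95% intervals use the SE and the fit's degrees of freedom. The test was checked on simulated counts without outlying libraries. That check does not cover data that hold libraries such as control 2 and withdrawal 2. Sums of CPM were described without a test. PCR reads carry no molecular identifiers. Alternatives were DESeq2 1.42.0, limma 3.58.1 on log2(FPKM + 1) and log2(FPKM + 0.1), library totals, no mitochondrial genes in the scaling, other filters, a replicate block, and leaving out libraries.

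The members and lists were chosen with earlier results of these data known. Named members were those called, those with separated groups, the smallest p and highest FPKM of each complex, tissue-limited isoforms, the mitochondrial genes and the 3 most variable. From each list the 2 genes with the smallest p were named, and any called. Single values of some genes under these rules are not reported here.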

Additional observations from a re-analysis of the deposited data

Results flagged for a closer look

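In groups of 4 or 6 libraries, 102 groups of values were examined for 1 library far from the others, judged by its gap to the nearest value over the group's range with Dixon's critical values. There were 20 such cases, 13 of them in control 2, 4 in withdrawal 2, 2 in withdrawal 1 and 1 in control 3. Chance gives about 1 in 20 groups, and the values of 1 library are not independent of each other. Control 2 and withdrawal 2 are the libraries with near-absent medial habenula markers.

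Control 2 was set apart upward in mt-Nd1 (7409.5 CPM), mt-Nd2 (6140.3 CPM), mt-Nd4 (5697 CPM), mt-Cytb (10133 CPM), mt-Co1 (23110.0 CPM) and mt-Co2 (88.8 CPM). The same library was high in the summed mitochondrial genome (59205 CPM), in the mitochondrial sums of complex III (10133 CPM) and complex IV (23228 CPM), in the nuclear sum of complex IV (1392 CPM) and in the summed assembly factors (243 CPM). These CPM use TMM factors; with library totals withdrawal 1 had the highest mitochondrial sum, and control 2 had the lowest nuclear sum of complex IV (1158 CPM) and the lowest assembly factor sum (202 CPM). Control 2 was low in Atp5s (14.8 CPM) and Cox7a1 (0.550 CPM). Withdrawal 2 was high in mt-Co2 (129 CPM), Polg (73.9 CPM) and Gabpa (58.7 CPM), and low in the nuclear sum of complex V (2840 CPM).

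Withdrawal 1 was high in mt-Atp6 (26.3 CPM) and in the mitochondrial sum of complex V (27.0 CPM), which is nearly the same measure. Control 3 was high in Ndufa4l2 (1.59 CPM).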

How the results depend on the processing

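In all 19 alternatives, 0 respiratory chain genes were called. Their smallest adjusted p was 0.0552, and it was 0.0978 with DESeq2. The number of genes called overall was 31, and it became 380 with DESeq2, 6 with library totals, 12 and 10 with limma on log2(FPKM + 1) and log2(FPKM + 0.1), between 4 and 893 with 1 library left out (893 without withdrawal 2, 34 without control 2) and 2088 without both. With replicate numbers as a block edgeR called 0 genes, with 1914 at an unadjusted p under 0.05. Deviations of same-numbered libraries from their group means correlated at 0.029, 0.305, -0.128 and 0.279. Libraries with different numbers were not compared, so whether the numbers pair the libraries cannot be said. The log2 ratio of the nuclear sums, 0.0288, became 0.104 with library totals and 0.0989 with FPKM. That of the mitochondrial sums, -0.0469, became 0.0418 with library totals and 0.0405 with FPKM.

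Of 486 values of named members under these alternatives, 47 had the other sign, in 13 genes, and none was called. With library totals, limma + 1 and limma + 0.1 in turn, log2 differences were 0.0529, 0.0495 and 0.0495 for mt-Nd1, 0.0137, 0.00993 and 0.00993 for mt-Cytb, 0.0611, 0.0574 and 0.0574 for mt-Co1, and 0.0886, 0.101 and 0.141 for mt-Atp8. Under the block, mt-Nd1 had 0.0275, mt-Co1 0.0263, mt-Atp8 0.206 and Ndufa4l2 -0.273. Without both control 2 and withdrawal 2, mt-Nd1 had 0.0949, mt-Nd4 0.00879, mt-Cytb 0.0237, mt-Co1 0.0959, mt-Atp8 0.294, Cox6b2 -0.365 and Gpx4 -0.0102. With 1 library left out at a time, genes that changed sign ranged from -0.212 to 0.00584 (Cox8a), -0.104 to 0.105 (mt-Nd1), -0.315 to 0.0229 (mt-Nd3), -0.175 to 0.0251 (mt-Nd4), -0.00626 to 0.0808 (mt-Nd5), -0.122 to 0.0370 (mt-Cytb), -0.0824 to 0.0938 (mt-Co1), -0.196 to 0.383 (mt-Co2), -0.0610 to 0.144 (mt-Atp6), -0.231 to 0.362 (mt-Atp8), -0.301 to 0.271 (Cox6b2), -0.512 to 0.197 (Cox8b) and -0.0251 to 0.297 (Ndufa4l2). The causes were not tested. Low members, such as Cox8b at 0.0506 CPM in withdrawal 3, have intervals wider than 1.41-fold.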
